A study of Mus musculus with 72 samples.

Results

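The comparison described here is the difference between male and female livers in their response to a Western diet low in isoleucine. For each gene the response was taken as the low isoleucine level minus the control level on the log2 scale, separately in males and in females, and the difference is the male response minus the female response, averaged over the B6 and DBA strains. It used 48 of the 72 libraries of the series, those on the low and control diets, and covered the 14497 autosomal genes among 14954 genes with enough counts to be tested. A positive difference means a response that was more positive in males, and a gene is called where its adjusted p from edgeR's quasi-likelihood test was below 0.05.

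Isoleucine belongs to the branched-chain amino acids that must come from the diet, and the liver senses and breaks down amino acids according to their supply. The mouse liver is also among the most sexually dimorphic organs: the pulsatile growth hormone of males and the near-continuous growth hormone of females act through STAT5 to keep different cytochrome P450, sulfotransferase and urinary protein genes on. Fasting, the circadian clock and sterol levels set a further layer of liver transcription, and all of these can differ between the sexes.

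RNA was sequenced from livers of mice of both sexes and 2 inbred strains, DBA/2J (DBA) and a strain named C57BL/6J in the design text and C56BL/6J in the sample fields (B6). The mice were given WD Control or WD Low Ile for 12 weeks and were fasted for 16 h. All groups shared the Western diet background and the fast, so neither the Western diet nor fasting was itself compared. The 8 groups were B6 females, B6 males, DBA females and DBA males on each of the diets, with 6 libraries in a group. The labels disagree on age: feeding began at 6 weeks of age by the design text, and at 18 weeks by the treatment text, with 18 weeks also in the age field. No time of day and no batch are given.

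The total count of a library was between 13000000 and 48800000, with a median of 24000000. Xist, transcribed from the inactive X chromosome, was found at 216 to 1040 CPM (counts scaled to a common library total) in females and reached at most 0.985 CPM in males. The Y-linked gene Ddx3y ran from 20.7 to 50.4 CPM across the male libraries and was at 0 in 23 of 24 female libraries, with 0.568 CPM in B6 female control library 4. That library also stood farthest from its group. Library titles carry a number that 2 libraries share, so a group of 6 libraries holds 3 title numbers. The labels do not say whether libraries of a number came from the same animal, nor whether each library is a separate animal, so the p-values rest on how much libraries of a group varied, and some of that variation could be technical. Results are therefore also given with the title number as a random block and with the libraries of a number summed.

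The difference between male and female responses was called for 975 genes, or 6.73% of the autosomal genes tested. The male response was more positive for 444 of them (3.06%) and more negative for 531 (3.66%), and the median difference over all autosomal genes was 0.0029. At an at least 2-fold difference, 87 genes were more positive and 81 more negative in males. Low isoleucine itself changed 4372 genes in females (30.2%) and 2911 in males (20.1%). With the title number as a block the difference was called for 309 genes, of which 307 were among the 975, and with the libraries of a number summed for 164, all among the 975. All 975 genes kept the sign of their difference in both of these fits. Both fits reuse the same libraries and groups, so the kept signs are no separate evidence. Leaving out both libraries of B6 female low title number 3 left 519 calls, and leaving out those of DBA female low title number 31 left 630. Without B6 female control library 4 the difference was called for 1162 genes, of which 934 were among the 975.

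The 975 genes were split by which sex responded. The response was called in females and not in males for 586 genes, rising in 332 and falling in 254. It was called in males and not in females for 256 genes, rising in 117 and falling in 139. For 53 genes it was called in both sexes with opposite signs: 33 rose in females and fell in males, and 20 did the reverse. A further 34 genes moved the same way in both sexes by different amounts, and 46 were called in neither. These classes follow from thresholds in each sex, and the test of the difference is the one that defines the 975.

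**Figure D1:**
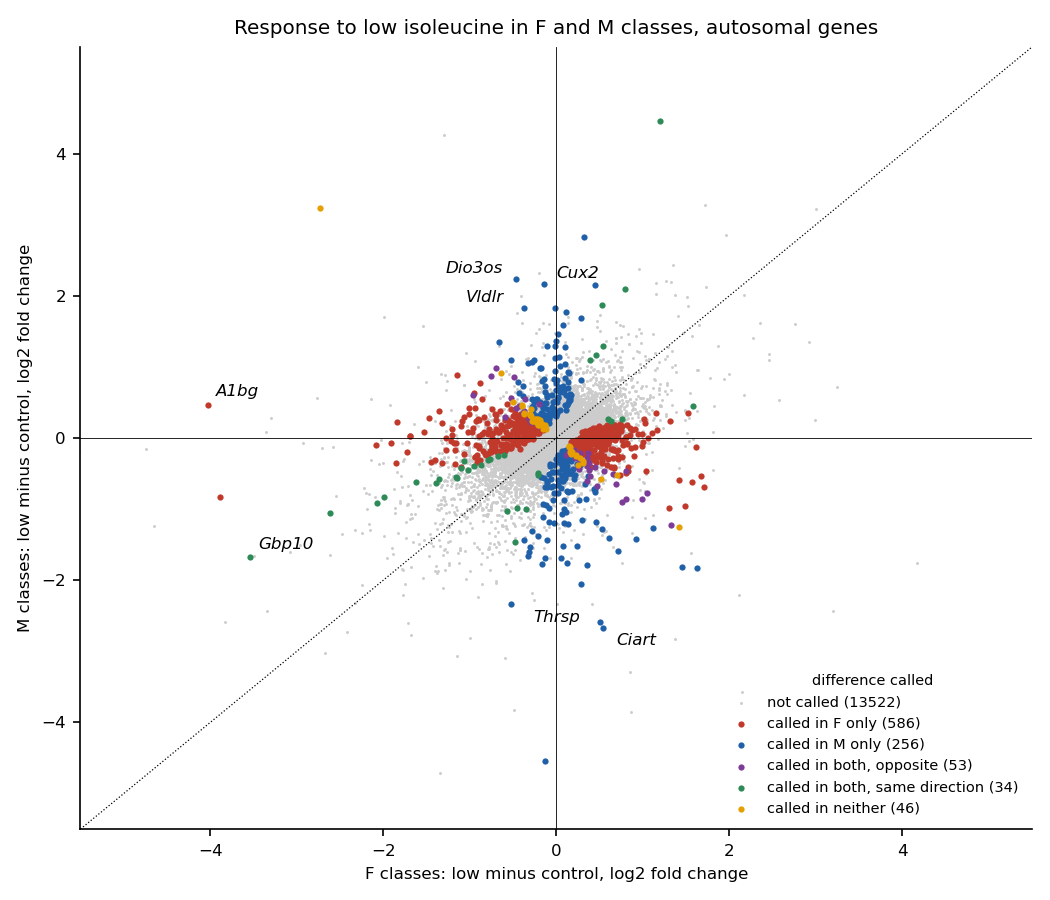
Each point is an autosomal gene, with its log2 fold change on low isoleucine in females (x axis) and in males (y axis), averaged over the strains. Grey points were not called for the difference, colours give the sex in which the 975 called genes responded, the dotted line marks equal responses, and 3 genes lie outside the axes. The 586 genes called in females only and the 256 called in males only are classes set by thresholds, and they need not lie on an axis. Myom3, called in females only, had 1.71 in females and −0.691 in males. Olig1, called in males only, had 0.614 in females and −1.41 in males.

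Dio3os had the lowest adjusted p. It is a noncoding RNA transcribed next to the thyroid hormone deiodinase gene Dio3, on the opposite strand, in the imprinted Dlk1-Dio3 region (GRCm38 chr12:110275385-110278172, minus strand). In B6 males its level ran from 0.351 over a median of 0.728 to 0.988 CPM on control and from 1.85 over 3.66 to 5.85 CPM on low isoleucine. In DBA males the control libraries held 0.852 to 3.16 CPM with a median of 1.44, and the low libraries 4.62 to 9.34 CPM with a median of 7.64. The male groups did not overlap in either strain. In females the medians were 7.2 on control and 5.07 on low in B6, and 7.78 and 5.7 in DBA, and the groups overlapped. The response was 2.23 ± 0.25 (log2, SE) in males with adjusted p = 1.2e-09 and −0.461 ± 0.22 in females with adjusted p = 0.11, and the difference of 2.70 ± 0.33 had edgeR adjusted p = 3.7e-07. The male minus female difference in level was −2.68 on control, 0.0103 on low and −1.51 on high isoleucine (log2). Whether counting used the strand is not given in the sources used here; Dio3 itself averaged 0.48 CPM and its difference was 1.22 with adjusted p = 0.066.

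In another group of genes the response was called in females and not in males. Nolc1, a nucleolar phosphoprotein, ran from 22.1 over 25.5 to 28.5 CPM in B6 female controls and from 32.9 over 42.6 to 55.7 CPM in B6 females on low isoleucine. DBA females went from 20.3 to 23.2 CPM on control to 35.3 to 47.8 CPM on low. The female groups did not overlap in either strain, whereas the male groups overlapped in both. Its response was 0.849 ± 0.080 in females (adjusted p = 3e-12) and 0.0475 ± 0.080 in males (adjusted p = 0.73), a difference of −0.80 ± 0.11 with edgeR adjusted p = 5.2e-06. Kpna2, an importin alpha that carries proteins into the nucleus, had responses of 0.715 in females (adjusted p = 5.8e-09) and −0.164 in males (adjusted p = 0.19). Fem1a, a substrate receptor of a ubiquitin ligase, rose by 0.466 in females and had −0.0243 in males. B6 female Fem1a values were 24.9 to 30.1 CPM on control and 37.3 to 48.4 CPM on low. Bdh1, a mitochondrial enzyme of ketone body metabolism, moved the other way: B6 females went from 335 to 561 CPM on control to 171 to 282 CPM on low, and DBA females from 433 to 551 to 230 to 421 CPM. Its female response was −0.89 (adjusted p = 7.3e-10), its male response −0.116 (adjusted p = 0.46) and its difference 0.77 ± 0.14 (edgeR adjusted p = 0.00037). All 4 genes kept their call with the block and with summed libraries.

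Genes that moved in opposite directions on the average of the strains included enzymes and regulators. Ttc39c, a tetratricopeptide repeat protein, rose by 0.473 ± 0.12 in females and fell by 0.67 ± 0.12 in males, so that its male excess narrowed from 2.28 on control to 1.14 on low (log2). DBA males went from 316 to 443 CPM on control to 187 to 282 CPM on low, without overlap, and DBA females from a median of 60.5 to 99.4 CPM. Ppat, the first committed enzyme of purine synthesis, rose by 0.451 in females and fell by 0.413 in males (edgeR adjusted p of the difference 4e-05). Ercc3, a helicase subunit of the transcription factor TFIIH, rose by 0.248 in females and fell by 0.404 in males. Klf11, a Krüppel-like transcription factor, fell by 0.483 in females and rose by 0.864 in males, a difference of 1.35 ± 0.21. Its female response was −0.95 in B6 and −0.0156 in DBA. In DBA males Klf11 lay at 3.24 to 6.98 CPM on control and 9.11 to 14.6 CPM on low, and in B6 females its medians were 16.4 and 6.98 CPM with overlapping ranges. Grpel2, a nucleotide exchange factor of the mitochondrial chaperone system, fell by 0.194 in females and rose by 0.484 in males. Its female response was −0.405 in B6 and 0.0171 in DBA, so the directions were not opposite in DBA. Gpt2, the mitochondrial alanine aminotransferase, rose by 0.384 in females and fell by 0.45 in males. Its male response was −0.0366 in B6 and −0.863 in DBA. Tax1bp1, an autophagy receptor, had the smallest changes of these, 0.11 in females and −0.242 in males. These 7 genes kept their call in both title number fits.

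Cyp7a1, the rate-limiting enzyme of bile acid synthesis, rose by 0.81 ± 0.29 in females and fell by 0.853 ± 0.29 in males, each with adjusted p = 0.027. B6 females ran from 35.5 over 62.3 to 314 CPM on control and from 181 over 252 to 308 CPM on low. DBA males ran from 140 over 311 to 429 CPM on control and from 55.6 over 70.8 to 332 CPM on low. The groups overlapped in each of the 4 classes, and the 314 CPM came from B6 female control library 4. The difference was −1.66 ± 0.41 with edgeR adjusted p = 0.0075, and 0.00024 without that library. It was 0.0054 with the block and 0.11 with summed libraries. Against the high isoleucine diet in place of control the difference was −0.568 (adjusted p = 0.42).

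**Figure D2:**
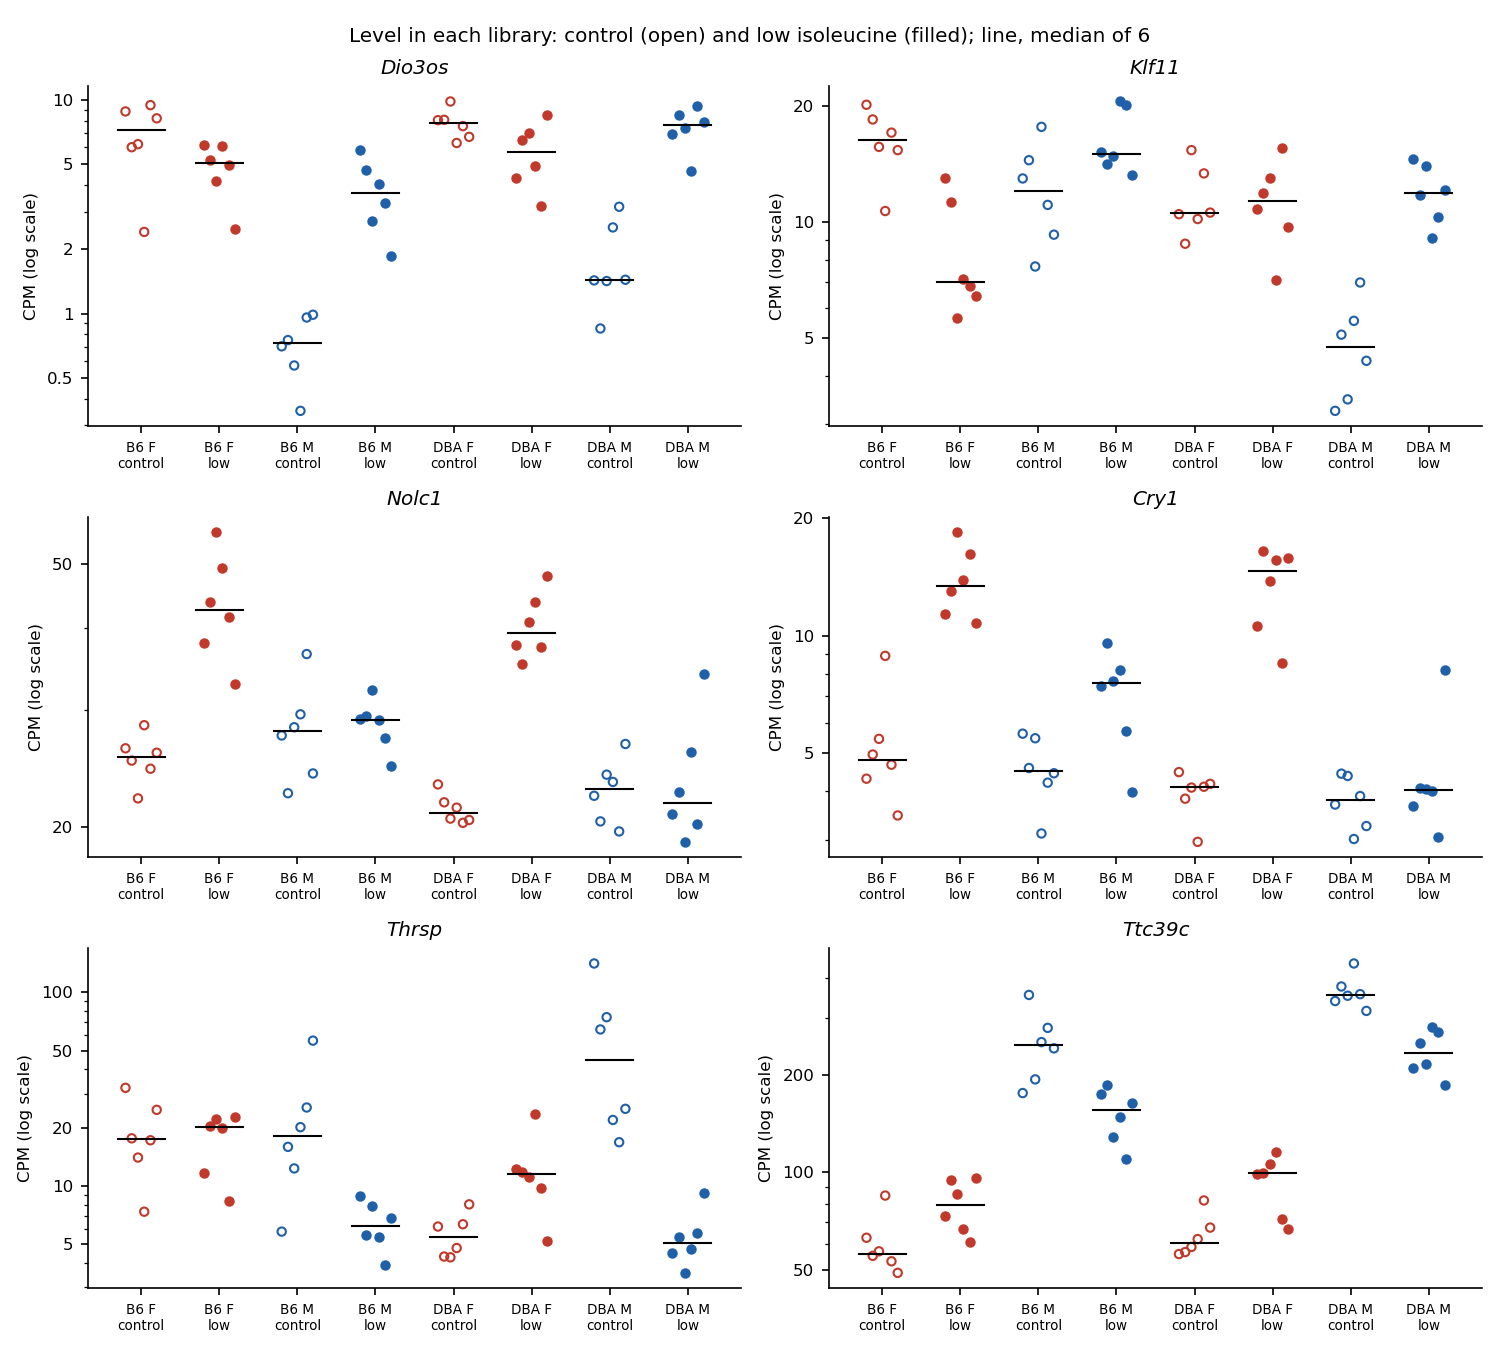
Levels of 6 genes in each of the 48 libraries, in CPM on a log axis, for females (red) and males (blue) on control (open) and low isoleucine (filled), with a line at the median of 6 libraries. Dio3os shifts upward in males of both strains and Klf11 in DBA males, Nolc1 and Cry1 in females of both strains, Thrsp downward in DBA males, and Ttc39c upward in female medians and downward in male medians.

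Sex-biased liver genes were read through lists drawn up from general knowledge. These and the other gene lists were chosen with earlier results of these data known, so their shares beside all genes are descriptive. Of 36 female-biased genes tested, 5 had a more positive and 1 a more negative male response (16.7% against 6.73% of all genes), and their median difference was 0.64. Their median response was −0.24 in females and 0.45 in males. Among the 5 were the lipoprotein receptor Vldlr, A1bg, the female-enriched transcription factor Cux2 and the prolactin receptor Prlr, and the other was Ppl, which encodes periplakin. Of 30 male-biased genes, 4 had a more negative male response and 1 a more positive one (16.7% called, background 6.73%). The 4 were the cytochrome P450 genes Cyp2u1 and Cyp2d9, the major urinary protein Mup21 and Omd, and the other was Mup7. The median response of the male-biased list was −0.59 in females and −0.87 in males. Its median difference was −0.21, with −0.43 in B6 and 0.059 in DBA, and the strains were not compared by a test. With the title number block the female-biased count was 2 and the male-biased count 1, with medians of 0.64 and −0.35, where 309 autosomal genes were called in all. Without B6 female control library 4 the male-biased list had 6 more negative responses and Mup7 was no longer called. That fit called 644 autosomal genes as more negative in males, against 531 with the library included.

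Vldlr in B6 males ran from 1.14 over 2.54 to 5.73 CPM on control and from 5.7 over 9.59 to 13.3 CPM on low. It rose by 1.82 ± 0.32 in males (adjusted p = 1.4e-05) and its difference was 2.20 ± 0.42 with edgeR adjusted p = 0.00071, kept in both title number fits. Cux2 rose by 2.17 ± 0.54 in males and had −0.139 in females. Its male low libraries ran from 0.641 to 11.5 CPM in B6 and from 0.45 to 12.6 CPM in DBA and overlapped the controls, and its call was lost with the block (adjusted p = 0.33) and with summed libraries (0.17). It was also lost in 6 of the 24 fits that each left out a title number, with adjusted p up to 0.18 without DBA male low number 7. A1bg reached its positive difference through females: B6 females went from 10.2 to 154 CPM on control to 1.78 to 5.17 CPM on low, and DBA females from 23.1 to 114 to 0.998 to 11 CPM. A1bg fell by 4.03 ± 0.43 in females (adjusted p = 2.3e-10), while male libraries stayed at 1.32 CPM or less on both diets. Its difference of 4.50 ± 1.1 had edgeR adjusted p = 0.0058, and 0.20 with the block.

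Mup21 in B6 males ran from 82 to 194 CPM on control and from 12.9 to 38.6 CPM on low, and fell by 1.51 ± 0.22 in males over the strains. Cyp2u1 in DBA males went from 33.3 to 63.5 CPM on control to 12.2 to 25.6 CPM on low, without overlap. Mup7 reached its positive difference through a fall of 3.89 in females, where its levels were far below those of males. Mup21 (block adjusted p = 0.087), Mup7 (0.52), Omd (0.14) and Cyp2d9 (0.11) lost their call with the block, and Cyp2u1 kept it (0.038). When a title number was left out Mup7 lost its call in 17 of 24 fits (adjusted p up to 0.17, without B6 female control number 2) and Omd without DBA female low number 31 (0.054). Major urinary protein and cytochrome P450 genes have near-identical copies among which reads can be split, so these values are uncertain. Other sex-biased genes fell or rose in both sexes without a called difference. Mup20 fell by 1.25 in females and 1.47 in males (adjusted p of the difference 0.81). The Mup20 difference was called, as more negative in males, without B6 female control library 4 (adjusted p = 0.031), with quality weights (0.025) and against high isoleucine (0.0089). Cyp4a12a fell by 1.66 and 1.46 (0.92). The estrogen sulfotransferase Sult1e1 rose by 1.71 in females and 3.27 in males (0.14). Elovl3 rose by 0.67 and 0.65 (0.99). Hsd3b5 fell by 2.61 and 1.65 (0.68), and the hydroxylase gene Cyp7b1 had −0.581 and −0.409, neither of which passed the test.

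Sex-biased genes were also taken from the 24 high isoleucine libraries, which entered neither response, as those called between the sexes with an at least 2-fold difference. These libraries shared the estimate of the spread with the others. Of 358 genes higher in males there, 40 had a more negative male response to low isoleucine and 2 a more positive one, with a median difference of −0.32. These 358 genes had a median response of −0.38 in females and −0.68 in males. Of 256 genes higher in females there, 26 had a more positive male response, with a median difference of 0.37 and median responses of −0.0046 in females and 0.35 in males. In males 67 of these 256 genes rose and 8 fell, where 1240 of all 14497 autosomal genes rose and 1671 fell. For the difference, 3.06% of all autosomal genes were more positive and 3.66% more negative in males. With the block, 15 of the male-higher genes were more negative and 13 of the female-higher genes more positive, and the medians were −0.36 and 0.40. In that fit 172 of all 14497 autosomal genes were called more negative and 137 more positive.

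Growth hormone signalling runs from the receptor Ghr through JAK2 and STAT5B to Igf1, with the suppressors of cytokine signalling as feedback inhibitors. Of 20 tested genes of growth hormone and sex hormone signalling, 5 had a more positive male response (25%, background 3.06%): Stat5b, the feedback inhibitors Socs1 and Socs3, and Cux2 and Prlr, which the female-biased list also holds. The list median was 0.32, with 0.084 in B6 and 0.28 in DBA. Stat5b rose by 0.374 ± 0.072 in males (adjusted p = 7.6e-05) and had −0.0394 in females. B6 males went from 31.3 to 39.6 CPM on control to 39.8 to 53 CPM on low, without overlap. DBA male ranges of 32.9 to 43.7 and 40.5 to 53.9 CPM overlapped. The difference of 0.41 ± 0.10 had edgeR adjusted p = 0.0075, 0.037 with the block and 0.085 with summed libraries. Socs1 fell by 1.53 in females and had 0.0895 in males, and Socs3 fell by 0.582 in females and had 0.273 in males. Socs3 lost its call in 11 of 24 fits without a title number (adjusted p up to 0.075, without B6 female control number 6). Of the list, Stat5b alone kept its call with the block. Ghr fell in both sexes, by 0.366 in females and 0.533 in males (adjusted p of the difference 0.45), and Igf1 had 0.0825 and −0.0677 (0.65). The repressor gene Bcl6 had 0.0709 and −0.205 (0.86).

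Among 37 genes that break down amino acids or run the urea cycle, 11 had a more negative male response (29.7%, background 3.66% in that direction), and 6 of the 37 had a positive difference. The list median was −0.42. In females 18 of the 37 rose, and in males 1 rose and 5 fell. Over all 14497 autosomal genes 2031 rose in females, and 1240 rose and 1671 fell in males. The 11 were Kmo, Aass, Prodh, Ass1, Tat, Bhmt, Uroc1, Ahcy, Gls2, Sds and Arg1. Ass1, argininosuccinate synthase of the urea cycle, ran from 1130 over 1300 to 2930 CPM in B6 female controls and from 1590 over 3060 to 3710 CPM on low. DBA females ran from 928 over 1560 to 2070 CPM and from 2050 over 2220 to 2880 CPM, and DBA males from 1490 over 1660 to 2230 CPM and from 818 over 1130 to 1850 CPM. All 4 classes overlapped between diets. Ass1 rose by 0.686 ± 0.17 in females (adjusted p = 0.0011) and had −0.179 in males (0.49).

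Tat, tyrosine aminotransferase, rose by 1.11 in females and had 0.0773 in males, a difference of −1.03 ± 0.28. Aass, the first enzyme of lysine breakdown, rose by 0.908 in females and had 0.127 in males. Arg1, the last enzyme of the urea cycle, rose by 0.703 in females and had 0.0292 in males. Bhmt and Ahcy of the methionine cycle rose by 0.99 and 0.662 in females and had 0.0565 and 0.179 in males. Kmo of tryptophan breakdown, Gls2, the liver glutaminase, and Uroc1 of histidine breakdown had male responses of −0.483, −0.479 and −0.606, each past the threshold, and were not called in females. Prodh and Sds rose in females, by 0.464 and 0.588, and were not called in males. With the title number block the count was 3, held by Kmo (adjusted p = 0.039), Aass (0.033) and Ass1 (0.048), where 172 autosomal genes were more negative. With summed libraries the lowest adjusted p among the 11 was 0.074, for Aass. The list median was −0.43 and −0.40 in these fits. When a title number was left out, Gls2 lost its call in 12 of 24 fits and Sds in 13 (adjusted p up to 0.11 and 0.095, each without B6 female low number 3), and Prodh without B6 male control number 7 (0.061). The list overlaps the 12 periportal hepatocyte markers, of which Ass1, Gls2, Sds and Arg1 were more negative in males (33.3%, background 3.66%). The median difference of the 12 was −0.47. With the block 1 of the 12 was called more negative, and with summed libraries 0, where 172 and 95 autosomal genes were. Without B6 female control library 4, 7 of the 12 were called more negative, where 644 autosomal genes were. Hepatocyte markers as a whole had summed levels between 80600 and 154000 CPM over the 48 libraries, and a median difference of −0.12.

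Isoleucine is broken down through the branched-chain amino acid route. Of 23 genes of branched-chain amino acid breakdown, Bckdk, the kinase that inhibits the branched-chain ketoacid dehydrogenase, was more positive (0.30 ± 0.097, edgeR adjusted p = 0.048) and Slc25a44, a mitochondrial branched-chain amino acid carrier, more negative (−0.35 ± 0.11, 0.047) in males, which is 8.7% of the list against 6.73% of all genes. Neither gene was called within either sex, and neither call was kept with the block (0.11 and 0.16). Slc25a44 also lost it without B6 female control library 4 (0.054). Without a title number the calls were lost in 16 and 19 of 24 fits. The dehydrogenase subunit gene Bckdhb had 0.173 in females and 0.196 in males (adjusted p of the difference 0.94). Of 29 targets of ATF4, the factor that answers amino acid shortage, Vldlr, Trib3 and Atf5 were more positive and Gpt2 more negative in males. That is 13.8% of the list against 6.73% of all genes, and the list median was 0.014. Atf5 lost its call with the block (0.077), with summed libraries (0.19) and without B6 female control library 4 (0.054). Trib3, a pseudokinase, fell by 0.522 in females and had 0.412 in males, and its call was lost with the block (0.056) and with summed libraries (0.13). Asparagine synthetase Asns had 1.29 in both females and males (adjusted p of the difference 1), and the liver hormone gene Fgf21 had 0.117 and 0.721 (0.40).

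Thrsp, a protein tied to fatty acid synthesis, ran from 16.8 over 44.6 to 141 CPM in DBA male controls and from 3.55 over 5.08 to 9.16 CPM on low, without overlap. B6 males ran from 5.8 over 18 to 56.3 CPM and from 3.89 over 6.19 to 8.85 CPM, with overlap. Females overlapped in both strains. Thrsp fell by 2.59 ± 0.38 in males (adjusted p = 6.8e-07) and had 0.505 in females, a difference of −3.10 ± 0.52 with edgeR adjusted p = 0.00016, kept in both title number fits. Scd1, stearoyl-CoA desaturase, ran from 2310 over 9180 to 19000 CPM in DBA male controls and from 822 over 2510 to 3080 CPM on low, with overlap. It fell by 1.68 in males and had 0.0597 in females (adjusted p of the difference 0.022, and 0.087 with the block). Scd1 lost its call in 4 of 24 fits without a title number, with adjusted p up to 0.083 without B6 male control number 7. Acss2, which makes acetyl-CoA from acetate, fell by 0.479 in males. Acss2 lost its call in 7 such fits (adjusted p up to 0.096, without DBA female low number 31). These were the 3 of 24 genes of fatty acid and triglyceride synthesis with a more negative male response (12.5%, background 3.66%), and the list median was −0.18. Acss2 was not called with the block or with summed libraries (adjusted p = 0.15 in each), and with the block Thrsp was the 1 gene of the list still called.

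Of 23 genes of cholesterol synthesis, 1 had a positive difference, the median was −0.48, and Dhcr7, Msmo1 and Hsd17b7 were called (13%, background 3.66%). Dhcr7 and Msmo1 fell in males, by 0.645 and 1.22, whereas Hsd17b7 rose in females by 0.684. Dhcr7 alone kept its call with the block (0.019), and Msmo1 and Hsd17b7 lost theirs in 14 and 16 of 24 fits without a title number. Against high isoleucine the list median was 0.012, and none of the 3 was called (adjusted p = 0.07, 0.74 and 0.70). Among 21 lipid droplet genes, 1 was more positive and 3 more negative in males (19% called, background 6.73%). Pnpla2, the triglyceride lipase, and Plin4 rose in females, by 0.674 and 1.04, and had −0.0287 and −0.465 in males. Plin3 fell in females by 0.682, and Pparg fell by 0.35 in females and 0.993 in males. Pnpla2 kept its call in both title number fits, Plin3 and Plin4 with the block only, and Pparg in neither. Pnpla2 in B6 females went from 60.1 to 112 CPM on control to 106 to 182 CPM on low. Of 21 genes of bile acid and sterol handling, 19% were called (background 6.73%). Cyp7a1 and the sterol hydroxylase Cyp8b1 were more negative in males, and Hsd3b7 and the bile salt export pump Abcb11 more positive. Cyp8b1 rose by 0.659 in females and had −0.0195 in males (block adjusted p = 0.055). Hsd3b7 and Abcb11 lost their call with the block (0.11 and 0.14) and with summed libraries (0.18 and 0.085), and Hsd3b7 in 12 of 24 fits without a title number.

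PPARA is the fasting regulator of fatty acid oxidation. Of 30 of its targets and related genes, 6 had a more positive male response (20%, background 3.06%), with a list median of 0.25, and these 6 were also called with the block. With summed libraries 3 were called, and Ehhadh (adjusted p = 0.24), Acadl (0.094) and Vnn1 (0.068) were not. Acot1, an acyl-CoA thioesterase, rose by 1.02 ± 0.15 in males and had 0.0393 in females. In DBA males it went from 42.1 to 125 CPM on control to 160 to 293 CPM on low, without overlap. Cyp4a14 rose by 1.29 in males and 0.537 in females, and Ehhadh of peroxisomal oxidation by 1.10 and 0.396. Acadl rose by 0.261 in males. Without B6 female control library 4 Ehhadh had adjusted p = 0.052. Bdh1 and the pantetheinase Vnn1 fell in females, by 0.89 and 0.779, and were not called in males. The coactivator gene Ppargc1a rose by 1.01 in females and had 0.429 in males (adjusted p of the difference 0.26).

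The circadian clock is a feedback loop in which CLOCK and BMAL1 bind E-boxes and the CRY and PER proteins repress them. Of 20 clock genes tested, 4 had a more negative male response (20%, background 3.66%), among them Cry1, Ciart and Usp2, while the list median was −0.011. All 4 were called with the block, and Cry1 was also called with summed libraries, in which Ciart (adjusted p = 0.054) and Usp2 (0.068) were not. Cry1 rose by 1.58 ± 0.15 in females (adjusted p = 1.4e-12) and by 0.45 ± 0.15 in males (0.022). B6 females went from 3.47 over 4.82 to 8.89 CPM on control to 10.8 over 13.4 to 18.4 CPM on low, and DBA females from 2.97 over 4.1 to 4.48 to 8.51 over 14.7 to 16.5 CPM. The female groups did not overlap in either strain and the male groups overlapped in both. Ciart, a clock repressor, fell by 2.67 ± 0.45 in males. DBA males went from 7.07 to 15.5 CPM on control to 0.386 to 1.48 CPM on low, without overlap, whereas B6 males overlapped at 0.571 to 10.4 and 0.77 to 2.92 CPM. Usp2, a deubiquitinase with a rhythmic transcript, fell by 2.05 in males, with DBA male ranges of 12.1 to 23.7 CPM on control and 0.933 to 2.35 CPM on low. Arntl, which encodes BMAL1, rose by 1.40 in females and 1.71 in males (adjusted p of the difference 0.67), and Dbp fell by 3.34 and 2.43 (0.24). Time of day was not given, so its part in these values was not tested.

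Ciart and Cry1 carried E-boxes in the 250 bases before their RefSeq start (GRCm38.p6), and these sequences are shown because both genes are direct clock repressors that differed between the sexes. The motif searched was CACGTG, which reads the same on both strands. It lay in 6.02% of 32841 promoter windows of this length and in 5 of the 17 clock genes that could be matched. Counted by gene, 6.86% of 27018 genes held it. The other 3 clock genes with it, Bhlhe41, Per1 and Tef, had no called difference (adjusted p = 0.96, 0.28 and 0.91). Capitals mark the motif, each sequence is given 5′ to 3′ on the gene's own minus strand, Ciart from chr3:95882229-95882478 and Cry1 from chr10:85185055-85185304.
Ciart: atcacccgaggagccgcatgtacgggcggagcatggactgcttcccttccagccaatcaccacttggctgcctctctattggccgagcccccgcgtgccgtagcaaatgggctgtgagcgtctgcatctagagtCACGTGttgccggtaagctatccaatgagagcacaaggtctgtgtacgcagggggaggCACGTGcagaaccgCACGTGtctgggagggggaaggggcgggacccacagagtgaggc
Cry1: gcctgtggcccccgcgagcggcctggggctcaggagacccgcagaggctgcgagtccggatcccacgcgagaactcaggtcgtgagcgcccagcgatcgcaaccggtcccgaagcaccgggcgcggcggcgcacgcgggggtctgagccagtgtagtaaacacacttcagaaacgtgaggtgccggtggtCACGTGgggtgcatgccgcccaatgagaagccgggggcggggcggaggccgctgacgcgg
The Ciart window held 3 matches and the Cry1 window 1. The Usp2 window held none, and a match is a description of the letters only.

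Of 33 interferon response genes, 32 fell in females and 29 in males, with median responses of −1.2 and −0.65, while over all 14497 genes 2341 fell in females and 1671 in males. The difference was positive for 32 of 33, with a median of 0.46 over the strains, 0.66 in B6 and 0.10 in DBA, and 5 were called (15.2%, background 3.06%): Irf9, Oas1g, Rtp4, Trim30a and Xaf1. Without B6 female control library 4 the count was 8, and that fit called 518 autosomal genes as more positive in males, against 444 with the library included. Irf9, a subunit of the interferon-activated transcription complex, fell by 0.69 in females and had −0.192 in males. B6 females went from 29 to 48 CPM on control to 21.6 to 32.4 CPM on low, and DBA females from 49 to 65.5 to 28.3 to 38.7 CPM. Its difference of 0.50 ± 0.11 had edgeR adjusted p = 0.0039 and kept its call in both title number fits, and the other 4 lost theirs with the block. Rtp4 also lost it without DBA female low number 31 (0.054). Ifit1 fell by 1.88 in females and 1.63 in males (adjusted p of the difference 0.66).

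Of 17 interferon-inducible GTPases, which act against intracellular pathogens, Irgm2, Gbp6, Gbp8, Gbp10 and Tgtp2 had a more positive male response (29.4%, background 3.06%), and the median difference was 1.6 in B6 and 0.19 in DBA. Gbp10 in B6 females went from 2.84 over 14.1 to 43.3 CPM on control to 0.345 over 0.882 to 2.24 CPM on low, and DBA females from 17.8 over 18.6 to 47.1 to 2.1 over 2.98 to 4.38 CPM. It fell by 3.54 ± 0.41 in females and 1.68 ± 0.37 in males. With the block the lowest adjusted p among these 5 was 0.11, for Irgm2. Gbp10 and Tgtp2 lost their call in 5 and 7 of 24 fits without a title number, with adjusted p up to 0.073 (without DBA female control number 30) and 0.073 (without DBA female low number 31). Gbp8 lost it without DBA female control number 30 (0.055). The count was 1 with summed libraries and 9 without B6 female control library 4. Over all autosomal genes those fits called 69 and 518 as more positive in males. These genes lie in families of near-identical copies, so their values are uncertain. In bulk tissue fewer cells of a type and less RNA per cell cannot be told apart. The summed level of 15 macrophage markers had medians of 206 and 101 CPM in B6 females, 171 and 114 in B6 males, 101 and 82 in DBA females, and 92.5 and 152 in DBA males on control and low. Kupffer cell markers had medians of 529 and 404, 333 and 203, 326 and 287, and 242 and 255 CPM in the same order. The summed level of 17 lymphocyte markers lay between 11.6 and 143 CPM. Of these, Cd4 was more negative and Nkg7 and Gzmb more positive in males (17.6%, background 6.73%). Cd4 kept its call with the block only (adjusted p = 0.048), Nkg7 with summed libraries only (0.045), and Gzmb in neither (0.30 and 0.053). The part of these cells in the interferon values was not tested.

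**Figure D3:**
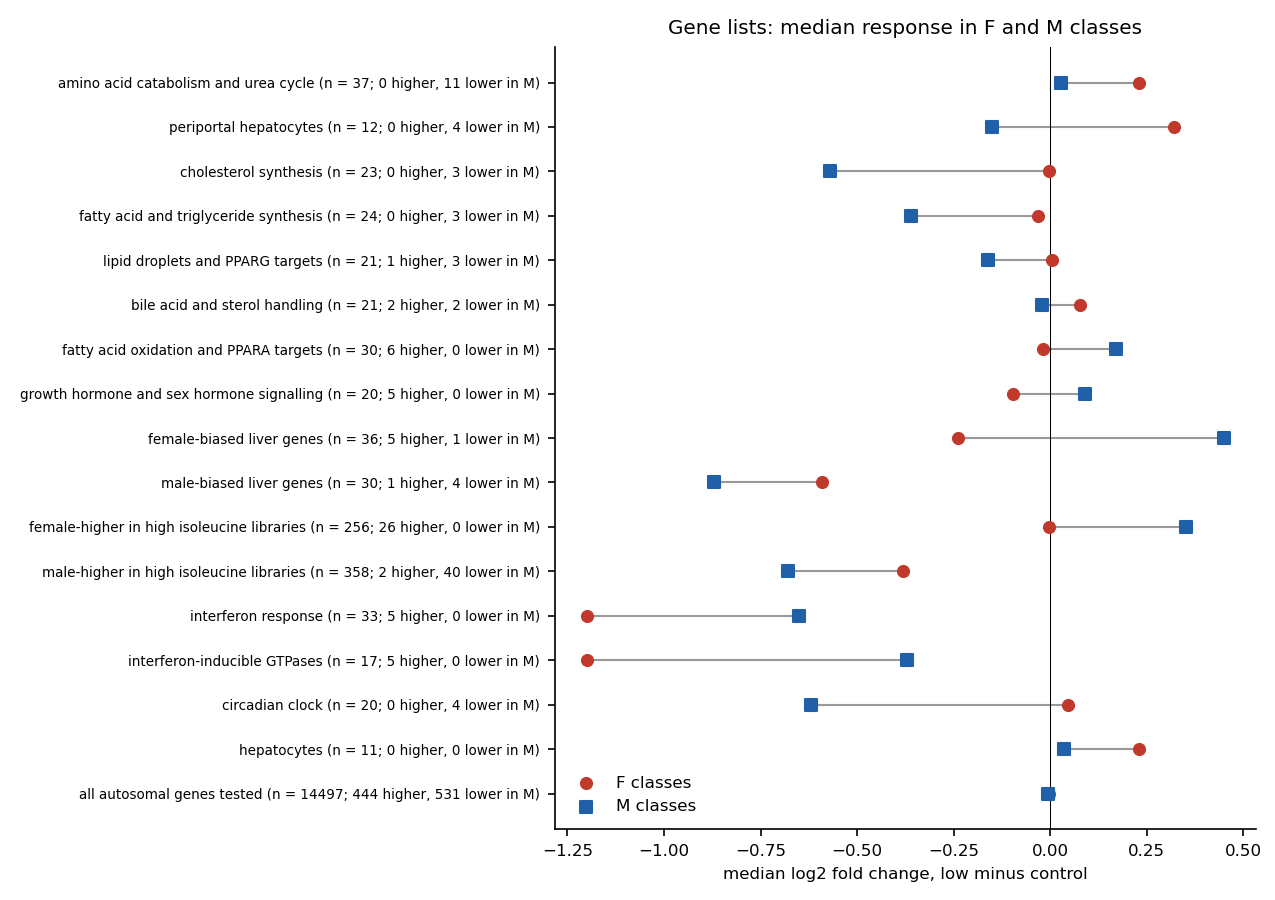
Median log2 fold change on low isoleucine of each gene list in females (red circles) and males (blue squares), with the number of genes tested and the number whose male response was more positive (higher) or more negative (lower) past the threshold. Among the female medians those of the 2 interferon lists lie farthest to the left, at −1.2 each, and the female-biased list has medians of −0.24 in females and 0.45 in males.

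Further named genes had large differences. Ndrg1, a stress-responsive gene, rose by 1.36 ± 0.16 in males and had −0.00336 in females, with DBA males going from 13.9 to 25 CPM on control to 43.2 to 91.1 CPM on low. Cables1, Ccn4, a secreted matricellular protein, and Atp2b2, a plasma membrane calcium pump, had positive differences of 1.40, 1.68 and 1.73. Atp2b2 and the receptor gene Gpr12 reached theirs through falls in females, of 1.35 and 1.85. Cdpf1 rose by 1.10 in males, with DBA males at 0.398 to 1.22 CPM on control and 1.35 to 3 CPM on low. On the negative side, Olig1 fell by 1.41 and Gnat1 by 1.79 in males, and Cabyr by 1.27. Myom3, Treh, Scara5 and Acpp rose in females, by 1.71, 1.30, 1.57 and 1.67, as did the metallothionein gene Mt2 by 1.42. Acpp was at 0.216 CPM or less in all DBA libraries of both diets. Mup14 fell by 1.42 in males. Ndrg1, Cables1, Ccn4, Atp2b2, Cdpf1 and Olig1 kept their call in both title number fits, Gnat1 with the block only, Gpr12, Cabyr and Myom3 with summed libraries only, and Mt2, Treh, Scara5, Acpp and Mup14 in neither. Without B6 female low number 3 Scara5 had adjusted p = 0.24 and Mup14 0.077, without B6 male control number 7 Mt2 had 0.06, and Acpp lost its call in 13 of 24 such fits. The adipose marker Cfd, tested alone of 5 such markers, had a difference of −4.42 at a mean of 0.816 CPM, and its call was lost with the block (0.48).

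The difference was also tested within each strain, on libraries that the strains do not share. In B6 it was called for 122 genes (0.842%) and in DBA for 401 (2.77%). Of the 122, 109 had the same sign in DBA (89.3%), and of the 401, 325 had the same sign in B6 (81%), against 59.2% over all 14497 genes. Across all genes the correlation of the differences was 0.2 (Pearson) and 0.25 (Spearman), as a description over genes that are not independent. Called in both strains with the same sign were 13 genes, which included Dio3os, Nolc1, Kpna2, Ercc3, Ttc39c, Klf11, Ppat, Grpel2 and Fem1a. The B6 count rose to 462 without B6 female control library 4 and was 3 with the title number block, and the DBA count with the block was 139.

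**Figure D4:**
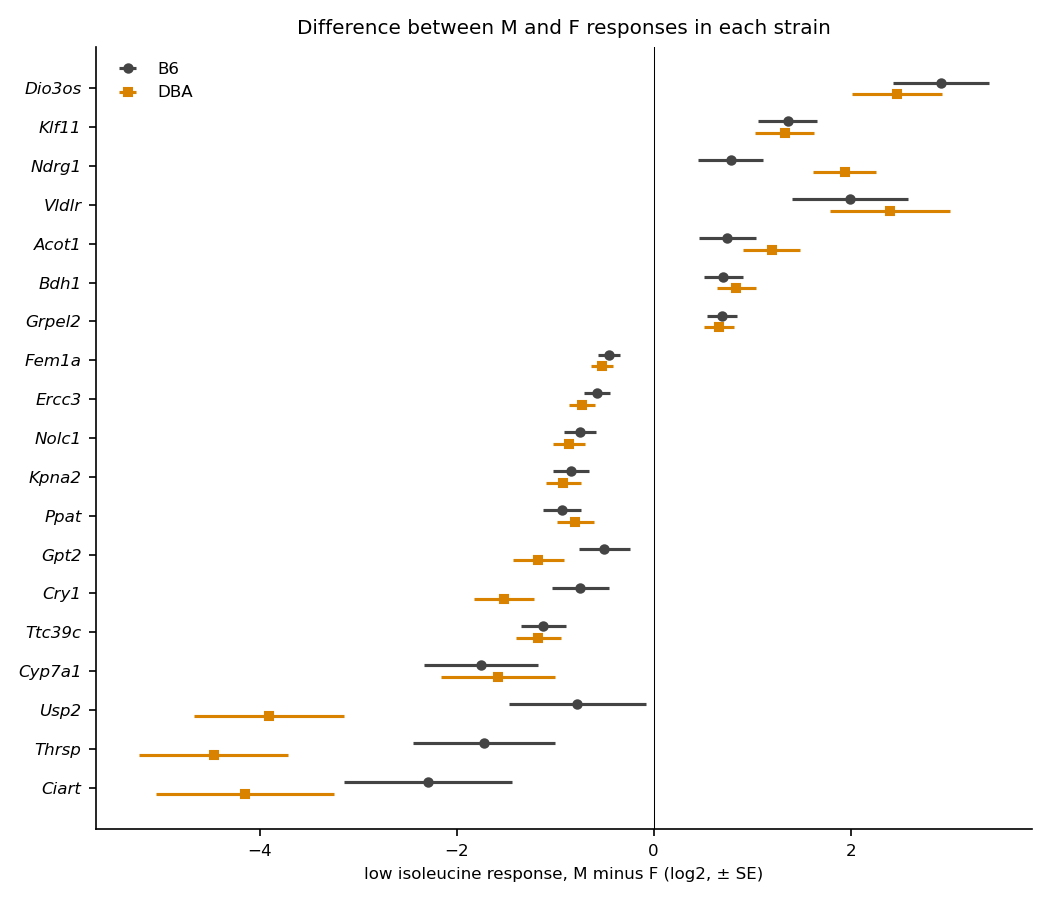
Male minus female difference in the low isoleucine response (log2, bars SE) for 19 named genes in B6 (circles) and DBA (squares). The 19 were picked among genes called on the average of the strains, so the choice itself favours like signs and sizes. All 19 have the same sign in both strains, against 59.2% of all 14497 genes. Dio3os, Klf11, Nolc1, Kpna2, Ppat, Grpel2, Ercc3, Fem1a and Ttc39c lie at nearly the same value in each.

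For other genes the values of the strains lay further apart. Usp2 had −3.91 in DBA and −0.774 in B6, and Thrsp −4.47 and −1.72. Called within B6, Tgtp2 (2.54), Igtp (2.10), Klf10 (1.85) and Cyp2b9 (4.94) were more positive in males. Cyp2b9, a female-enriched cytochrome P450, was at 0 to 8.99 CPM in B6 male controls and at 13.2 to 77.9 CPM in B6 males on low, and its averaged difference was 2.52 ± 0.83 with edgeR adjusted p = 0.052. In limma voom with title numbers as the block, 3 genes were called within B6 and were all more negative in males, so none of these positive calls was kept, with 1474 genes at an unadjusted p below 0.05. Called within B6 by edgeR without the block, Mt2 (−3.04), Klf4 (−2.02), Apold1 (−1.90), Mup21 (−1.89) and C4a (−1.83) were more negative in males. Called within DBA, Cyp3a41a (5.07) and Cyp3a44 (4.67) were more positive and Slc22a29 (−3.26) and Cyp2a5 (−2.73) more negative. Cyp3a41a stayed at 3.2 CPM or less in DBA males, and both Cyp3a genes have near-identical copies. Whether the strains differed was tested separately, and no gene named in this paragraph was called in that test.

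The strain difference itself was called for 6 genes (0.0414%), 1270 genes having an unadjusted p below 0.05. Cyp4a14 had a difference of −0.174 ± 0.24 in B6 and 1.69 ± 0.25 in DBA, where males rose by 2.05 and females had 0.361. Cyp4a31 had −0.975 and 1.59, Amigo1 −0.0621 and 1.15, and Tshz2 −0.592 and 0.529. Parp16 had 0.326 in B6 and −0.932 in DBA, and the chemokine gene Cxcl1 1.21 and −1.88. With the title number block limma voom called 0 genes, with 717 at an unadjusted p below 0.05, and with summed libraries edgeR called 0, with 781.

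With high isoleucine in place of control as the reference, the male minus female difference in the low isoleucine level was called for 1082 genes (7.46%). The 2 comparisons share the low isoleucine libraries. Dio3os had 1.52 against high and 2.70 against control, and Nolc1 −0.661 and −0.80. Of the 84 named genes called against control, 57 were also called against high isoleucine.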

How the data were processed

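Livers were sequenced in 72 libraries, and the 48 on the low and control isoleucine diets make up the comparison. Per the labels' protocols the authors deposited expected counts per Ensembl gene on GRCm38.p5, and GRCm38, edgeR, limma and R 3.4.3 are listed in the submitters' processing notes. The aligner, the counter and the strand setting were not given in the sources used here. For the library kit the labels hold both a polyA stranded mRNA entry and a stranded total RNA entry. Of 50308 genes listed, 1 stood on an incomplete last line and was left out. Of the nonzero values 9.56% were not whole, and all were rounded.

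Genes with enough counts by filterByExpr (14954) were fitted once over all 72 libraries with edgeR 4.0.16 (R 4.3.3), using TMM scaling and the robust quasi-likelihood test of the contrast. The p-values were adjusted by Benjamini-Hochberg over all genes tested, and only the 14497 autosomal genes are reported. Standard errors are the log2 value divided by the square root of F. Levels in CPM are descriptive. The test of the averaged difference was also run on simulated counts. These were drawn independently for each library, so they cannot bear on libraries that share a title number. Libraries totalled 13000000 to 48800000 counts, which limits precision for genes near 1 CPM. No pair of replicates agreed within sampling noise.

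Alternatives were RLE scaling, other filters, the 48 libraries alone, limma 3.58.1 voom with the title number as a random block, summed libraries, quality weights, DESeq2 1.42.0, high isoleucine as the reference, and leaving out each title number. The genes named were those called with a mean of at least 1 CPM that had the 12 largest differences each way, up to 3 called members of each list, the 5 largest each way within each strain, and a fixed panel. Other called list members, the 6 genes of the strain difference and Dio3 were named after their values were seen. The comparison and the lists were chosen with earlier results of these data known. Some genes that met the naming rule are not reported here.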

Additional observations from a re-analysis of the deposited data

Results flagged for a closer look

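The low isoleucine response differed between males and females for 975 autosomal genes by the test of the difference itself. The size of that difference in turn differed between B6 and DBA for 6 genes. The B6 minus DBA value (log2) was −1.86 for Cyp4a14, −1.21 for Amigo1, 1.26 for Parp16, −2.57 for Cyp4a31, 3.10 for Cxcl1 and −1.12 for Tshz2.

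For 22 named genes the 6 libraries of each of 8 groups were searched for a library that stood apart, and 14 of 176 groups had one. The cutoff gives about 1 in 20 for independent, normally distributed values. CPM values need not be so, and the genes share their libraries, so the count was not compared with that rate. In DBA males on low isoleucine, library 6 had 32.3 CPM of Kpna2, 35 CPM of Fem1a and 8.18 CPM of Cry1, library 4 had 15.9 CPM of Ercc3, and library 3 had 19.5 CPM of Vldlr. In B6 female controls, library 4 had 8.89 CPM of Cry1, 314 CPM of Cyp7a1 and 2930 CPM of Ass1. In B6 males, control library 6 had 2.92 CPM of Cdpf1 and low library 6 had 2.92 CPM of Ciart. In DBA females, low library 4 had 2880 CPM of Ass1, low library 6 had 11 CPM of A1bg, and control library 3 had 60.7 CPM of Stat5b. In DBA male controls, library 2 had 0.781 CPM of A1bg. All 14 were higher than the other libraries of their group.

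Ddx3y, which lies on the Y chromosome and entered no comparison, was at 0.568 CPM in B6 female control library 4 and at 0 in the other 23 female libraries. The source of these counts was not tested.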

How the results depend on the processing

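The count of 975 genes was 988 with RLE scaling, 1069 from the 48 libraries alone, 1162 without B6 female control library 4 and 1203 with DESeq2. It was 598 with no filter on low counts (344 more positive and 254 more negative), 309 with the title number as a random block, 164 with summed libraries and 2224 with quality weights. Voom without the block gave 960. Same-numbered libraries had a median residual correlation of −0.027, from −0.36 to 0.24 over 36 pairs. Other pairs of a group had a median of −0.25, and the consensus correlation of the block fit was 0.24. Residuals were taken from the mean of each group of 6 libraries, which by itself pulls correlations within a group below 0. The −0.027 is therefore to be read against −0.25 and not against 0. Leaving out each title number gave 519 to 1232. The B6 count of 122 was 43 with no filter, 462 without B6 female control library 4, 3 with the block, 4 summed, 1270 with quality weights and 249 with DESeq2, and 8 to 590 when a title number was left out. It was 8 without B6 female control number 6 or low number 3, 35 without control number 10, and 590 without control number 2. The DBA count of 401 was 255, 139, 34 and 973 with no filter, block, sum and quality weights, and 200 to 460 when a number was left out, the lowest being without DBA male low number 11. The 6 genes of the strain difference became 1 with RLE scaling, 1 with no filter, 11 at a mean of at least 1 CPM, 10 without B6 female control library 4, 0 with the block or summed, 39 with quality weights, 17 with DESeq2, and 0 to 14 when a number was left out. The low isoleucine response called 1914 genes in males with the block and 1618 summed, and leaving out a number gave 2131 to 3126 in males and 3560 to 4634 in females. The cause of these changes was not tested, other than that summing leaves fewer samples.

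Of the 84 named genes called, 26 kept their call with both the block and summed libraries, 14 with the block only, 7 summed only and 37 with neither, and 53 kept it whichever title number was left out. Signs changed in genes that were not called. Against high isoleucine Hsd3b5 had −0.029, Cyp4a12a −0.417 and Bckdhb −0.149. Cyp4a12a had −0.679 without B6 female control library 4, −0.451 with the block, −0.465 in voom without it and −0.839 with quality weights. Elovl3 had 0.0148 with no filter. Asns had 0.0132 with no filter, 0.123 with the block, 0.133 in voom without it, 0.0157 summed, 0.0779 with quality weights and 0.0306 with DESeq2. Leaving out a title number gave −0.0296 to 0.645 for Arntl, −0.629 to 0.707 for Cyp4a12a, −0.0419 to 0.0858 for Bckdhb, −0.388 to 0.142 for Elovl3 and −0.612 to 0.546 for Asns. No pairing of low with control libraries was possible because the labels give them no shared number with that meaning.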

Other observations

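Some of the 53 genes that moved in opposite directions in the sexes lay outside the gene lists, and the following were picked after their values were seen. Aldh1l1, a folate enzyme abundant in liver, rose by 0.557 in females and fell by 0.469 in males at a mean of 667 CPM. Slc22a3, an organic cation transporter, rose by 0.687 and fell by 0.648. Hr, a nuclear receptor corepressor, rose by 0.988 in females and fell by 0.851 in males. Flcn, the folliculin gene that acts in lysosomal nutrient sensing, fell by 0.375 in females and rose by 0.373 in males. The iron transporter gene Slc11a2 fell by 0.311 and rose by 0.263. The nuclear factor genes Nfia and Nfib fell in females, by 0.167 and 0.20, and rose in males, by 0.192 and 0.167. The highest edgeR adjusted p within a sex among these picked genes was 0.023, for Nfib in males. With the title number block 16 genes were called in both sexes with opposite signs and for the difference, and 13 with summed libraries. Whether the picked genes were among them is not reported here.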
